A study of Mus musculus with 14 samples.

Results

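The genes described here encode 10 core proteins of extracellular proteoglycans, found by their symbols among the 22430 genes of a count table from mouse aortic intima. They are 3 lecticans (Bcan, Acan and Vcan), 6 small leucine-rich proteoglycans (Bgn, Dcn, Lum, Fmod, Prelp and Ogn) and perlecan (Hspg2). All 10 had enough counts to be among the 14269 genes tested. RNA came from the endothelium-lined inner layer of the thoracic aorta, lysed by reagent passed through the lumen, and each of the 14 libraries pooled 12 to 14 mice of 1 genotype. Every mouse lacked apolipoprotein E (Apoe-/-), which makes mice prone to atherosclerosis.

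Ubiquitous progerin mice (Apoe-/-LmnaG609G/G609G, 3 pools) carried on both Lmna alleles the mutation that makes cells produce progerin, a shortened lamin A that causes Hutchinson-Gilford progeria, and were set against wild-type control mice (Apoe-/-Lmna+/+, 4 pools). VSMC progerin mice (Apoe-/-LmnaLCS/LCS SM22Cre, 3 pools) produced progerin where a Cre recombinase driven by the SM22α promoter was active, chiefly vascular smooth muscle cells (VSMC). Their controls were lamin C-only mice without Cre (Apoe-/-LmnaLCS/LCS, 4 pools), so both groups of this pair shared the modified Lmna alleles, from which lamin C but no lamin A is made in the absence of Cre. The lamin C-only control was also set against the wild-type control. Neither age nor sex is stated in the labels used here.

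Proteoglycans are core proteins that carry long, negatively charged glycosaminoglycan chains. Lecticans bind hyaluronan through their head domain and link proteins (Hapln genes) lock the complex, which swells with water. Small leucine-rich proteoglycans bind collagen fibrils and growth factors, and biglycan and decorin carry chondroitin or dermatan sulfate chains. Perlecan, the heparan sulfate proteoglycan of basement membranes, lies under the endothelium with laminins, nidogens and collagen IV. In the artery wall the chains of versican and biglycan bind apolipoprotein B lipoproteins, and versican is a main proteoglycan of atherosclerotic intima. Brevican is best known from the perineuronal matrix of the brain and aggrecan from cartilage.

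Bcan and Vcan are the members that moved in opposite directions in both progerin comparisons, so the 250 bases before RefSeq's start of each are shown, from the RefSeq promoter table of build GRCm38.p6. RefSeq's starts lie upstream of the GENCODE starts used for positions elsewhere, with 126 bases between the shown window and the GENCODE start for Bcan and 3 bases for Vcan. Both lie on the minus strand, at chr3:88000357-88000606 for Bcan and chr13:89742513-89742762 for Vcan, and are written 5′ to 3′ on that strand. Capitals mark GC boxes (GGGCGG, or CCGCCC when read on the other strand).
Bcan: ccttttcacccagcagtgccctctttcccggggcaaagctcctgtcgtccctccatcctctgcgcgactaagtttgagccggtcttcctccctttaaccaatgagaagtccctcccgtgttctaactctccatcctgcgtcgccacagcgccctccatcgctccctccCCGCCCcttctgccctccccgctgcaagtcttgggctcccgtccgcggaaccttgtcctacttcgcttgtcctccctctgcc
Vcan: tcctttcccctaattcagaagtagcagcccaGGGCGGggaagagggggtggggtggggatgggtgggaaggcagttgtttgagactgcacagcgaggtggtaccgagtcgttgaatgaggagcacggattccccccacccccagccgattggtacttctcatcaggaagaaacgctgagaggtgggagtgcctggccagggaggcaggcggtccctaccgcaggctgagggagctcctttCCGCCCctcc
The Bcan window held 1 GC box and the Vcan window 2, and GC content was 62.0% in Bcan and 62.4% in Vcan, against a median of 52.4% over 32851 promoters of the same length. A GC box was present in 32.7% of those promoters. The TATA box letters TATAAA, present in 12.4%, and the TEAD letters GGAATG, present in 12.6%, were searched on both strands and are in neither window. The promoter table had an entry for 8 of the 10 members, and those of Dcn and Lum were not among them. The matched letters describe the sequence and are not evidence of binding.

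Estimated counts per library totalled 27169784 to 35692385. Levels are counts scaled to a library total of 1e+06 (CPM) with TMM factors, which align libraries on the bulk of their genes. The endothelial markers Pecam1 and Vwf, an adhesion molecule and a clotting glycoprotein, were high throughout. Pecam1 averaged 11900 CPM in ubiquitous progerin against 11600 in wild-type control, and 8850 in VSMC progerin against 11400 in lamin C-only control. Vwf averaged 5090 CPM in ubiquitous progerin against 7240 in wild-type control, and 7730 in VSMC progerin against 6630 in lamin C-only control. Of 10 endothelial markers, 3 rose and 5 fell in ubiquitous progerin (sum 20900 to 21900 CPM, against 23200 to 25100 CPM in wild-type control). In VSMC progerin 4 rose and 5 fell (21700 to 22700 CPM, against 22200 to 24300 CPM in lamin C-only control). At an adjusted p under 0.05, 54.6% of all genes were called in ubiquitous progerin and 42% in VSMC progerin. Mitochondrially encoded genes took 7.29 to 8.22% of counts in ubiquitous progerin, 4.60 to 5.42% in wild-type control, 11.5 to 12.1% in VSMC progerin and 3.53 to 4.61% in lamin C-only control. Lmna had 115 to 121 CPM in ubiquitous progerin, against 113 to 125 CPM in wild-type control, and 207 to 256 CPM in VSMC progerin, against 126 to 142 CPM in lamin C-only control. Apoe had 44.5 to 72.1 CPM over all libraries, and whole-gene counts of either gene cannot check the alleles. A pair of control libraries stood apart. Wild-type control pool 1 lay at -65 on principal component 3, with the other 13 libraries between -7.75 and 14.4. Lamin C-only control pool 4 had the highest level of its group for 6 of 6 adipocyte markers and 7 of 10 adventitial fibroblast markers. It was also highest for 5 of 6 lymphatic endothelial, 6 of 10 smooth muscle and 5 of 8 Schwann and neuronal markers. The counts were lower for macrophage (4 of 10) and endothelial markers (2 of 10). Results of the 10 genes that change without either library are given both ways, as are counts over gene lists that move by over 1.5 times.

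Levels of different genes were compared as CPM per kilobase of annotated exon sequence, which understates genes whose usual transcript is shorter than the union of their exons. Biglycan led, at 720 ± 31.5 in ubiquitous progerin, 958 ± 71.2 in wild-type control, 1040 ± 87.6 in VSMC progerin and 901 ± 44.3 in lamin C-only control (SD; n = 3, 4, 3 and 4). Hspg2 was second in every group (103 to 132 CPM per kilobase) and Dcn came next (22.9 to 43.0). Acan was last of the 10 in every group (0.00304 to 0.137). Bcan held rank 9 in both progerin groups, at 0.176 ± 0.123 in ubiquitous progerin and 0.559 ± 0.188 in VSMC progerin, and rank 4 in both control groups, at 7.0 ± 3.54 in wild-type control and 4.50 ± 0.694 in lamin C-only control. Lum, Prelp and Ogn were neighbours in the wild-type control, at 3.67 ± 1.07, 3.35 ± 0.409 and 3.09 ± 0.464 CPM per kilobase, and their ranges overlapped. As a share of the summed CPM of the 10 genes, Bgn and Hspg2 together made up nearly all, with Bgn at 71.4% in ubiquitous progerin, 74.2% in wild-type control, 75.1% in VSMC progerin and 74.2% in lamin C-only control.

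**Figure D1:**
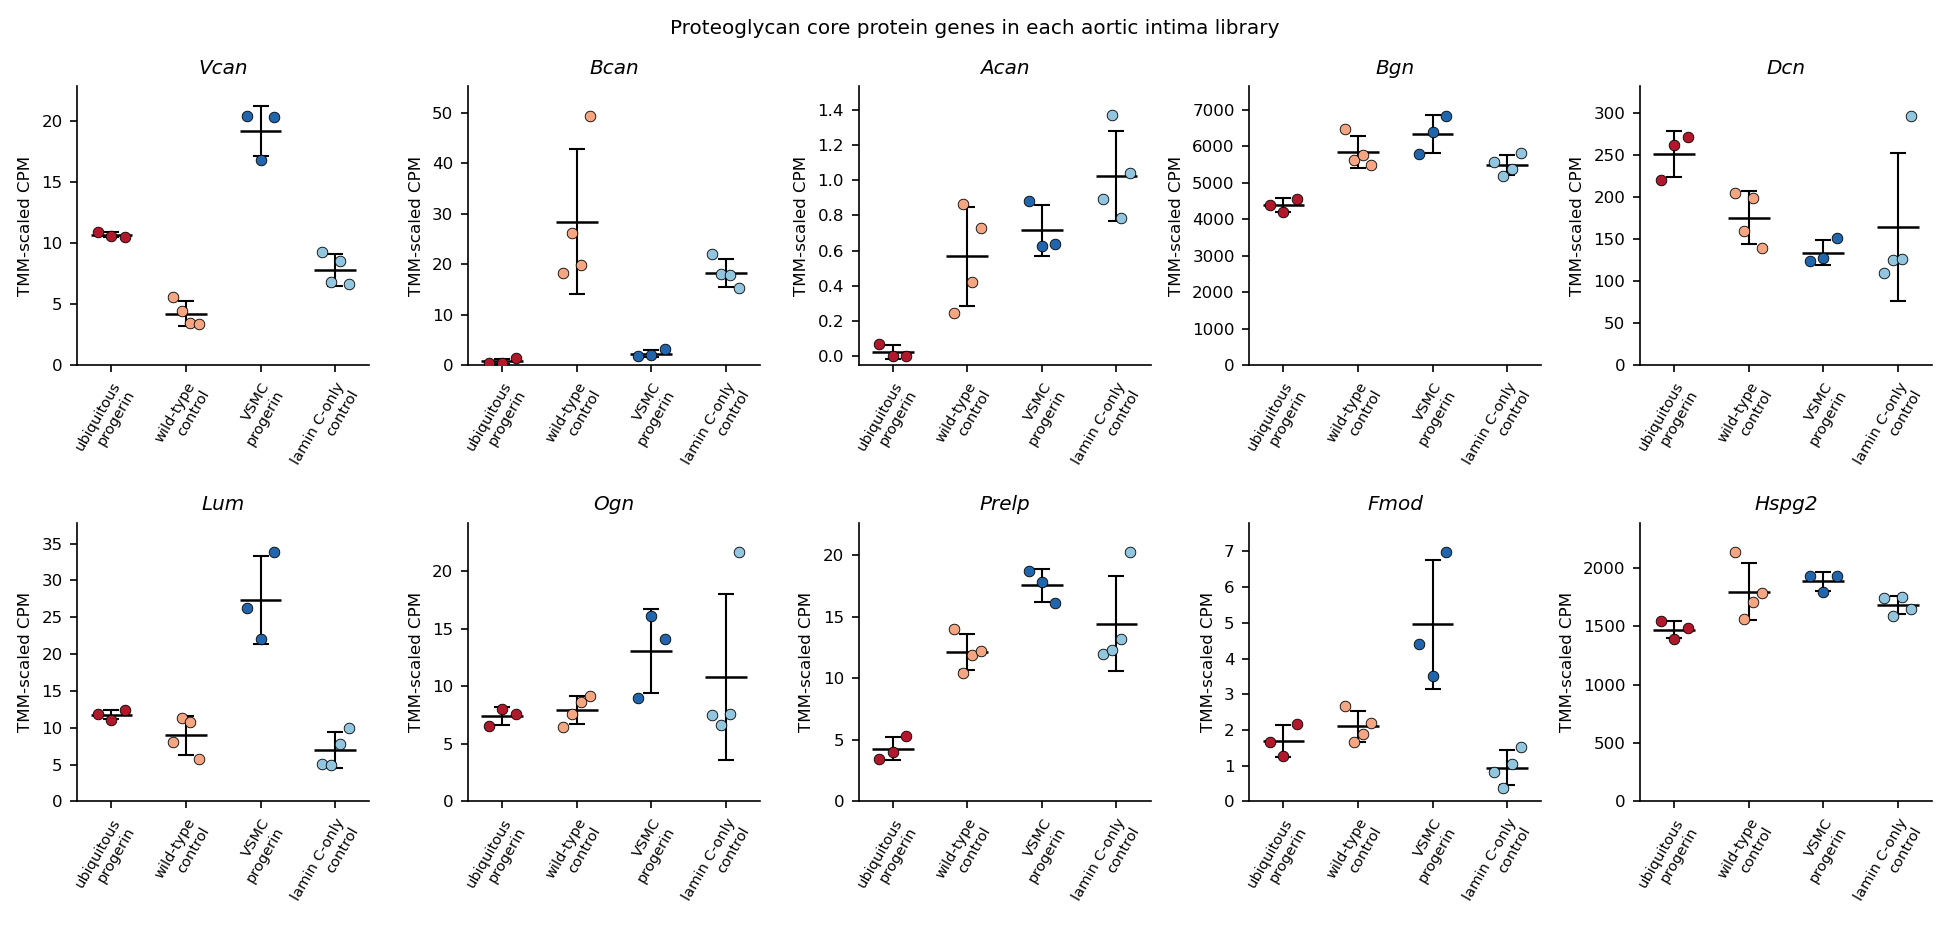
TMM-scaled CPM of each of the 10 genes (vertical axis, linear, own scale per panel) in every library, grouped as ubiquitous progerin, wild-type control, VSMC progerin and lamin C-only control. Points are pools, and horizontal lines and bars are the mean ± SD. Bcan lies between 0.408 and 3.15 CPM in the 6 progerin libraries and between 15.2 and 49.4 CPM in the 8 control libraries, and the single high points of Dcn, Ogn and Prelp in the lamin C-only control are pool 4.

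In ubiquitous progerin intima, Vcan rose while Bcan, Acan, Prelp, Bgn and Hspg2 fell, and Dcn, Lum, Ogn and Fmod were not called. This is 1 of 10 members higher and 5 lower at an adjusted p under 0.05 (edgeR quasi-likelihood test, Benjamini-Hochberg adjustment over the genes tested). Over all 14269 genes 54.6% were called, 26.3% higher and 28.3% lower, so 6 of 10 is close to the background. The median log2 fold change was -0.29 over the members and -0.005 over all genes. CPM ranges did not overlap for 2 members that were higher and 5 that were lower, against 28.2% and 28.3% of all genes (56.4% in either direction).

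In VSMC progerin intima, Vcan, Lum, Fmod and Bgn rose, Bcan fell, and Acan, Dcn, Ogn, Prelp and Hspg2 were not called. These 4 higher and 1 lower of 10 stand against 42% of all genes called, 19% higher and 23% lower. The median log2 fold change was 0.24 over the members and -0.03 over all genes. CPM ranges did not overlap for 4 members that were higher and 1 that was lower, against 20.7% and 24.8% of all genes (45.5% in either direction).

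**Figure D2:**
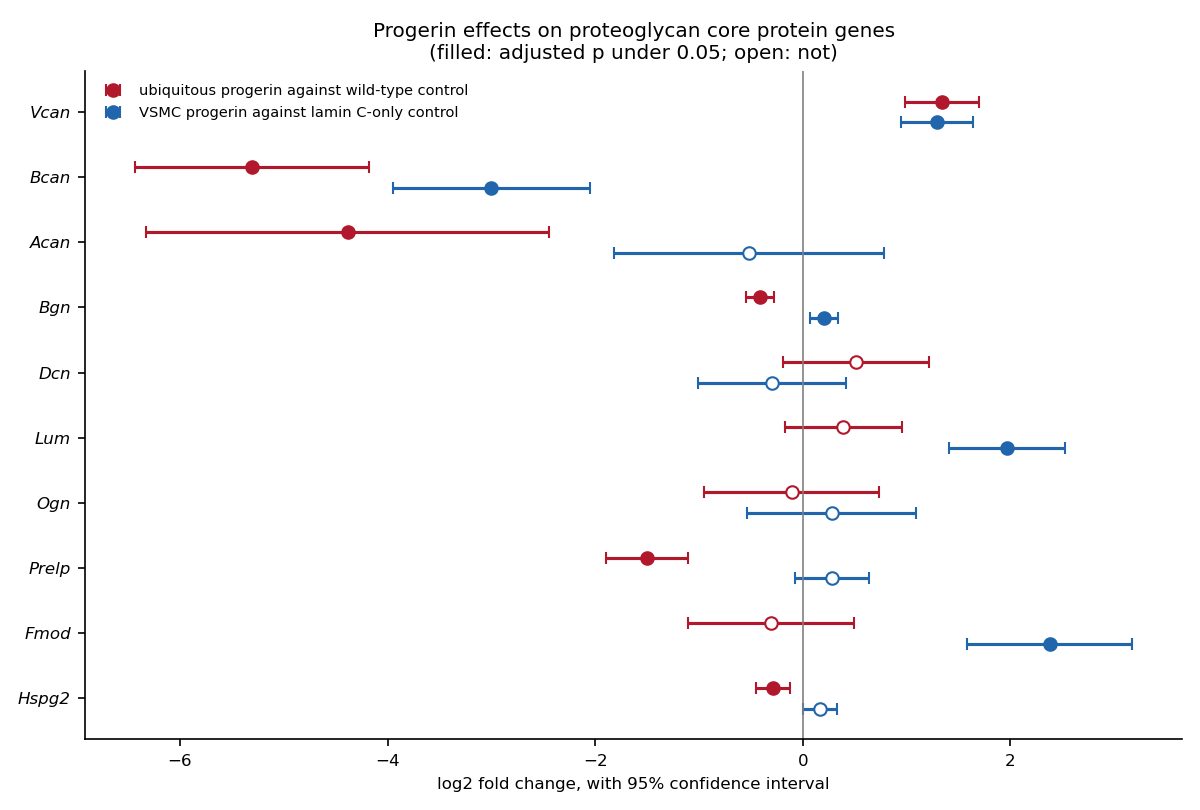
Log2 fold change of each gene (horizontal axis) with its 95% confidence interval from edgeR, for ubiquitous progerin against wild-type control (upper of each pair, red) and VSMC progerin against lamin C-only control (lower, blue), filled where the adjusted p was under 0.05 and open where it was not. Vcan is filled right of 0 and Bcan left of 0 in both comparisons, while Bgn is left of 0 in ubiquitous progerin (-0.41) and right of 0 in VSMC progerin (0.21).

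Among the lecticans, Bcan (brevican; ENSMUSG00000004892, chromosome 3, 87987531 to 88000230 in GRCm38) was nearly lost from the ubiquitous progerin libraries, at 0.443, 0.408 and 1.29 CPM, against 18.2, 26.2, 19.9 and 49.4 CPM in wild-type control. It was likewise low in VSMC progerin, at 1.76, 1.91 and 3.15 CPM, against 22.0, 18, 17.9 and 15.2 CPM in lamin C-only control. Every progerin library was below every control library, in both pairs. The log2 fold change was -5.30 ± 0.51 (SE; adjusted p = 4.0e-06, edgeR) for ubiquitous progerin, resting on 61 counts in its libraries and 3501 in the wild-type libraries, and -3.00 ± 0.43 (adjusted p = 0.000175, edgeR) for VSMC progerin, resting on 208 counts and 2523 in the lamin C-only libraries. Ordered from the most negative fold change, Bcan stood at place 35 of 14269 genes in ubiquitous progerin and at place 68 in VSMC progerin. In bulk tissue, fewer cells of a type and less RNA per cell cannot be told apart.

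The fall was 2.30 ± 0.67 log2 units smaller in VSMC progerin than in ubiquitous progerin (adjusted p = 0.0157, edgeR, VSMC progerin effect minus ubiquitous progerin effect). That call ended without VSMC progerin pool 3 (1.99, adjusted p = 0.0519), without ubiquitous progerin pool 1 (2.04, adjusted p = 0.0504) and in limma voom (2.35, adjusted p = 0.155).

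Vcan (versican; ENSMUSG00000021614, chromosome 13, 89655312 to 89742509) went the other way. It had 10.9, 10.6 and 10.5 CPM in ubiquitous progerin, against 5.60, 4.42, 3.45 and 3.37 CPM in wild-type control. The VSMC progerin pools had 20.4, 16.8 and 20.3 CPM, against 9.28, 6.81, 8.49 and 6.62 CPM in lamin C-only control. All progerin libraries were above their own controls. The log2 fold change was 1.34 ± 0.17 (adjusted p = 1.5e-06, edgeR) in ubiquitous progerin and 1.29 ± 0.16 (adjusted p = 2.5e-06, edgeR) in VSMC progerin. The difference of these effects was -0.05, with a 95% interval of -0.54 to 0.44 (adjusted p = 0.889, edgeR).

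The ratio of Vcan to Bcan per kilobase was 6.92, 7.31 and 2.28 in ubiquitous progerin, against 0.0865, 0.0474, 0.0486 and 0.0191 in wild-type control. In VSMC progerin it was 3.25, 2.47 and 1.81, against 0.118, 0.106, 0.133 and 0.123 in lamin C-only control. Per kilobase, Vcan was therefore the more abundant of the pair in each of the 6 progerin libraries and Bcan in each of the 8 control libraries, a ratio that library scaling cannot change. Summed over the 3 lecticans, levels were 0.833 to 1.04 CPM per kilobase in ubiquitous progerin, against 4.90 to 12.5 in wild-type control, and 1.72 to 2.26 in VSMC progerin, against 4.34 to 6.17 in lamin C-only control.

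**Figure D3:**
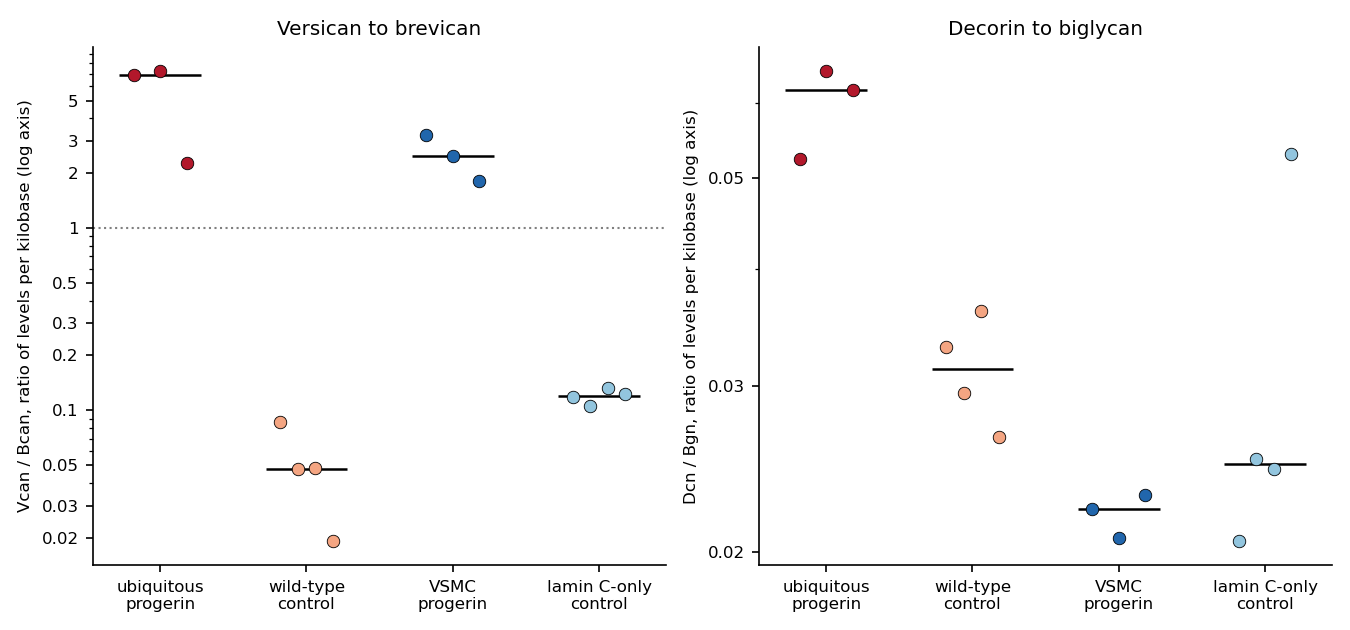
Ratio of Vcan to Bcan (left) and of Dcn to Bgn (right), each from CPM per kilobase of exon, on log axes, in every library by group. Points are pools, horizontal lines are group medians and the dotted line marks equal levels. The Vcan to Bcan ratio is between 1.81 and 7.31 in the 6 progerin libraries and between 0.0191 and 0.133 in the 8 control libraries.

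Acan (aggrecan; ENSMUSG00000030607, chromosome 7, 79053483 to 79115099) was near the detection limit, with 2, 0 and 0 counts in ubiquitous progerin (0.0682, 0 and 0 CPM), against 0.248, 0.865, 0.423 and 0.730 CPM in wild-type control. Pooled over libraries these are 2 against 70 counts, a rate ratio of 0.0409 with a 95% interval of 0.00486 to 0.153 that covers counting error only. The call (adjusted p = 0.00048, edgeR) rests on these few counts. VSMC progerin libraries had 0.882, 0.625 and 0.636 CPM, against 0.894, 1.37, 0.786 and 1.04 CPM in lamin C-only control, overlapping ranges with a log2 fold change of -0.52 (95% interval -1.82 to 0.79; adjusted p = 0.54, edgeR). The effects differed by 3.87 ± 1.13 log2 units, VSMC progerin minus ubiquitous progerin (adjusted p = 0.0083, edgeR), and this too rests on the 2 counts.

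Each lectican lies beside a link protein gene: Bcan 21.5 kb from Hapln2, Vcan 43.7 kb from Hapln1, and Acan 2 bases from Hapln3 on the opposite strand. Because the strand setting used in counting is not given in the sources used here, reads at the adjoining ends of Acan and Hapln3 are uncertain. Hapln1 averaged 0.0949 CPM in ubiquitous progerin against 0.861 in wild-type control, a log2 fold change of -3.14 ± 0.69 (adjusted p = 0.00071, edgeR). It averaged 0.403 CPM in VSMC progerin against 2.51 in lamin C-only control, a log2 fold change of -2.63 ± 0.59 (adjusted p = 0.0012, edgeR). Hapln1 thus moved against its neighbour Vcan in both progerin comparisons, at levels near the detection limit (mean log2 CPM -0.54). Between the controls it lay higher in all lamin C-only libraries, as Vcan did, but was not called (log2 fold change 1.54, adjusted p = 0.363, edgeR). Hapln2 had at most 7 counts in a library and was not tested, and Hapln3 was not called in either progerin comparison. These link genes were singled out for their position.

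Of 20 genes of lectican partners and hyaluronan metabolism, 17 were tested. In ubiquitous progerin 2 rose and 6 fell (median log2 fold change -0.12), against 54.6% of all genes called. Cd44, a hyaluronan receptor, averaged 24.1 CPM in ubiquitous progerin against 8.24 in wild-type control (log2 fold change 1.55). Hyal2, a hyaluronidase, fell by 1.94 on the log2 scale, and Fbln2, a fibulin that binds versican, fell by 1.45. In VSMC progerin 4 rose and 3 fell (median 0.40), against 42% of all genes called. Cd44 rose by 1.39, while Fbln2 fell by 0.61 and Hyal1, another hyaluronidase, fell by 0.43. Cd44 is also abundant on leukocytes, and all 10 macrophage markers rose in both comparisons. The summed macrophage markers came to 1010 to 1570 CPM in ubiquitous progerin, against 84.0 to 160 CPM in wild-type control, and to 738 to 892 CPM in VSMC progerin, against 76.3 to 260 CPM in lamin C-only control. Their part in the Vcan, Cd44 and other results was not tested.

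Summed markers of the tissues in which Bcan and Acan are best known were higher in the progerin libraries than in their controls. Of 8 Schwann cell and neuronal markers, 4 were tested, and their sum was 18.4 to 22.2 CPM in ubiquitous progerin, against 7.59 to 11.1 CPM in wild-type control. It was 28.6 to 37.4 CPM in VSMC progerin, against 9.30 to 13.5 CPM in lamin C-only control, with Tubb3, a tubulin, as the highest. In ubiquitous progerin 2 of the 4 rose and 1 fell (none without wild-type pool 1), and in VSMC progerin 2 rose and none fell. Of 10 chondrocyte markers, 5 were tested and 3 rose in each comparison, with Comp, a cartilage matrix protein, as the highest in VSMC progerin. The chondrocyte sum was 17.2 to 21.6 CPM in ubiquitous progerin, against 6.98 to 8.62 CPM in wild-type control, and 24.0 to 25.7 CPM in VSMC progerin, against 5.0 to 10.7 CPM in lamin C-only control. Cnmd, the chondrocyte gene of chondromodulin, was at 0 in every library. Single genes weighed heavily in these sums. Tubb3 averaged 12.5 CPM in ubiquitous progerin and 22.2 CPM in VSMC progerin, and Comp averaged 15.5 CPM in VSMC progerin. The shares of all genes called were 54.6% in ubiquitous progerin and 42% in VSMC progerin. Any part of such cells in the Bcan and Acan results was not tested.

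Among the small leucine-rich proteoglycans, Bgn (biglycan; ENSMUSG00000031375, chromosome X, 73483602 to 73495933) had 4400, 4190 and 4570 CPM in ubiquitous progerin, against 6470, 5640, 5770 and 5480 CPM in wild-type control. All ubiquitous progerin libraries were lower, with a log2 fold change of -0.41 ± 0.07 (adjusted p = 2.6e-05, edgeR). In VSMC progerin Bgn had 5780, 6400 and 6840 CPM, against 5570, 5200, 5380 and 5830 CPM in lamin C-only control. VSMC progerin pool 1 fell within the control range, and the log2 fold change was 0.21 ± 0.07 (adjusted p = 0.0157, edgeR). That call ended without a scaling factor (0.13, adjusted p = 0.111) and without VSMC progerin pool 3 (0.15, adjusted p = 0.113). The VSMC progerin effect exceeded the ubiquitous progerin effect by 0.62 ± 0.09 (adjusted p = 1.9e-05, edgeR).

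Dcn (decorin; ENSMUSG00000019929, chromosome 10, 97479609 to 97518143), which regulates collagen fibril diameter and binds TGF-β, had 220, 261 and 271 CPM in ubiquitous progerin, against 204, 159, 199 and 139 CPM in wild-type control. The ranges did not overlap, but the log2 fold change of 0.52 (95% interval -0.19 to 1.22) was not called (adjusted p = 0.195, edgeR). The spread of the fit included lamin C-only pool 4, with 296 CPM against 109 to 126 CPM in the other 3 pools of that group. Without that library the ubiquitous progerin value was 0.52 (adjusted p = 0.0045, edgeR), and in a fit of these 2 groups alone it was 0.52 (adjusted p = 0.0161). VSMC progerin libraries had 123, 127 and 151 CPM, within the lamin C-only range. The log2 fold change was -0.30 (95% interval -1.01 to 0.41; adjusted p = 0.496, edgeR) with pool 4 and 0.15 (adjusted p = 0.428) without it.

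The Dcn to Bgn ratio per kilobase ran from 0.0523 to 0.0650 in ubiquitous progerin, against 0.0265 to 0.0361 in wild-type control. In VSMC progerin it ran from 0.0207 to 0.0230, against 0.0205 to 0.0530 in lamin C-only control, where 0.0530 is pool 4. The ranges of ubiquitous progerin and wild-type control were apart, and those of the other pair overlapped.

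Prelp (prolargin; ENSMUSG00000041577, chromosome 1, 133910304 to 133921414), which links collagen and perlecan in basement membranes, had 3.48, 4.04 and 5.31 CPM in ubiquitous progerin, against 14.0, 10.4, 11.9 and 12.2 CPM in wild-type control. All 3 ubiquitous progerin libraries were well below the control range, with a log2 fold change of -1.50 ± 0.19 (adjusted p = 1.2e-06, edgeR). VSMC progerin libraries had 18.7, 17.8 and 16.1 CPM, against 12.0, 12.3, 13.2 and 20.2 CPM in lamin C-only control. Only pool 4 of the controls lay above them. The log2 fold change was 0.28 (95% interval -0.07 to 0.64; adjusted p = 0.192, edgeR), and without pool 4 it was 0.49 (adjusted p = 0.013, edgeR). The effects differed by 1.79 ± 0.25, VSMC progerin minus ubiquitous progerin (adjusted p = 8.8e-06, edgeR). Prelp shares 350 exon bases with an antisense gene, Gm15851, which the count table did not hold.

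Lum (lumican; ENSMUSG00000036446, chromosome 10, 97565128 to 97572703), a keratan sulfate core protein of fibrillar collagen matrix, had 26.2, 22.1 and 33.8 CPM in VSMC progerin, against 5.14, 5.0, 7.83 and 9.99 CPM in lamin C-only control. The groups were far apart, with a log2 fold change of 1.97 ± 0.26 (adjusted p = 3.0e-05, edgeR). Ubiquitous progerin libraries had 11.9, 11.1 and 12.4 CPM, against 8.01, 11.3, 10.8 and 5.71 CPM in wild-type control, an overlap with a log2 fold change of 0.39 (95% interval -0.17 to 0.95; adjusted p = 0.224, edgeR). The effects differed by 1.58 ± 0.37 (adjusted p = 0.0032, edgeR).

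Fmod (fibromodulin; ENSMUSG00000041559, chromosome 1, 134037254 to 134048277), a relative of lumican that binds the same kind of fibril, had 4.41, 3.50 and 6.97 CPM in VSMC progerin, against 0.838, 0.373, 1.06 and 1.53 CPM in lamin C-only control. Again the groups did not overlap, and the log2 fold change was 2.38 ± 0.38 (adjusted p = 4.3e-05, edgeR). Ubiquitous progerin libraries had 1.67, 1.26 and 2.16 CPM, against 2.66, 1.67, 1.89 and 2.19 CPM in wild-type control. Those ranges overlapped, with a log2 fold change of -0.30 (95% interval -1.10 to 0.50; adjusted p = 0.528, edgeR). The effects differed by 2.68 ± 0.55 (adjusted p = 0.00045, edgeR). Fmod lies 115.8 kb from Prelp, and the Prelp to Fmod ratio per kilobase was 1.90 to 2.93 in ubiquitous progerin, against 4.82 to 5.79 in wild-type control, and 2.11 to 4.65 in VSMC progerin, against 11.4 to 30.1 in lamin C-only control. The ratio was thus lower in the progerin libraries of both pairs, and the member called was Prelp in the ubiquitous progerin pair and Fmod in the VSMC progerin pair. The ranges of the control groups were themselves apart, with the lamin C-only control above the wild-type control.

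Ogn (osteoglycin, also called mimecan; ENSMUSG00000021390, chromosome 13, 49608046 to 49624501) had 6.51, 8.04 and 7.58 CPM in ubiquitous progerin, against 6.45, 7.56, 8.59 and 9.14 CPM in wild-type control. The ranges nearly coincided, with a log2 fold change of -0.11 (95% interval -0.95 to 0.74; adjusted p = 0.838, edgeR). VSMC progerin libraries had 9.0, 16.1 and 14.1 CPM, against 7.49, 6.62, 7.59 and 21.6 CPM in lamin C-only control. Pool 4 was the highest of these 7 libraries and the other 3 controls the lowest. The log2 fold change was 0.28 (95% interval -0.53 to 1.09; adjusted p = 0.587, edgeR) with pool 4 and 0.86 (adjusted p = 0.0015, edgeR) without it. The difference of effects was 0.38 (95% interval -0.79 to 1.56; adjusted p = 0.601, edgeR) with pool 4 and 0.96 (adjusted p = 0.0064) without it.

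Several of these genes sit in clusters with other small leucine-rich genes. Dcn and Lum lie 47.0 kb apart on the same strand of chromosome 10, with Kera and Epyc, whose products are keratocan and epiphycan, nearby. Kera was at 0 in every library and Epyc had at most 13 counts. The Lum to Dcn ratio per kilobase was 0.416 to 0.535 in VSMC progerin, against 0.0806 to 0.148 in lamin C-only control. In ubiquitous progerin it was 0.101 to 0.129, against 0.0935 to 0.170 in wild-type control. The ratio thus lay apart from its controls in VSMC progerin and overlapped them in ubiquitous progerin. Ogn lies 15.2 kb from Omd (osteomodulin) and 40.5 kb from Aspn (asporin). Omd fell by 1.37 in ubiquitous progerin and by 2.01 in VSMC progerin on the log2 scale, while Aspn averaged 16.1 CPM in VSMC progerin against 2.12 in lamin C-only control (log2 fold change 2.93 ± 0.59, adjusted p = 0.0019, edgeR). Aspn was named for its place beside Ogn after its values were seen.

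Of 11 other small leucine-rich protein genes, 7 were tested. In ubiquitous progerin 1 rose and 3 fell (median log2 fold change -0.61; 2 rose without lamin C-only pool 4), against 54.6% of all genes called. Chad (chondroadherin, which binds collagen and integrin) had a log2 fold change of 0.61, Omd of -1.37 and Podn (podocan) of -0.69. The CPM ranges of Chad overlapped there. In VSMC progerin 3 rose and 3 fell (median -0.28), against 42% of all genes called. Chad averaged 90.0 CPM in VSMC progerin against 6.75 in lamin C-only control (log2 fold change 3.74 ± 0.18, adjusted p = 6.1e-10, edgeR), and Podn fell by 1.17.

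Fibroblast markers moved in part with these genes. For the marker counts that follow, the shares of all genes called were 54.6% in ubiquitous progerin and 42% in VSMC progerin. Of 10 adventitial fibroblast markers, 7 rose and none fell in VSMC progerin, and their sum was 2030 to 2540 CPM in VSMC progerin, against 954 to 1020 CPM in lamin C-only control. In ubiquitous progerin 3 rose and 3 fell (1 rose and 3 fell without wild-type pool 1), and the sum was 472 to 511 CPM, against 833 to 1010 CPM in wild-type control. The sum is led by Ly6c1, Pi16 and Mfap5, which carried its lower level in ubiquitous progerin. Ly6c1 averaged 158 CPM there against 344 in wild-type control, Pi16 59.0 against 207 and Mfap5 151 against 276. The median log2 fold change of the list was 0.31 in ubiquitous progerin and 1.21 in VSMC progerin. No marker of the list was at 0. Of 6 adipocyte markers, 5 rose in VSMC progerin (sum 498 to 615 CPM in VSMC progerin, against 50.4 to 338 CPM in lamin C-only control) and 1 in ubiquitous progerin (115 to 276 CPM, against 60.1 to 89.6 CPM in wild-type control). Pool 4 alone had 338 CPM, and the other 3 lamin C-only pools had 50.4 to 109 CPM. Without pool 4, 6 adipocyte markers rose in VSMC progerin and 4 in ubiquitous progerin. Without wild-type pool 1, 3 rose in VSMC progerin and 1 in ubiquitous progerin, and without both libraries 6 rose in VSMC progerin, and 3 rose and 1 fell in ubiquitous progerin. Of 10 smooth muscle markers, 0 rose and 5 fell in VSMC progerin (372 to 442 CPM, against 498 to 662 CPM in lamin C-only control), and 2 rose and 4 fell in ubiquitous progerin (1030 to 1070 CPM, against 571 to 935 CPM in wild-type control). With wild-type pool 1, lamin C-only pool 4 or both left out, 1 smooth muscle marker rose in VSMC progerin. The higher sum in ubiquitous progerin was carried by Tagln, the SM22α gene (mean 774 CPM, against 258 CPM in wild-type control), which rose, whereas smooth muscle actin Acta2 (92.6 CPM, against 213 CPM in wild-type control) and Smtn, smoothelin (60.9 CPM, against 95.5 CPM in wild-type control), fell. Of 6 lymphatic endothelial markers, 3 rose in VSMC progerin (139 to 153 CPM, against 76.7 to 89.7 CPM in lamin C-only control) and 2 in ubiquitous progerin (96.3 to 112 CPM, against 73.8 to 80.7 CPM in wild-type control). Flt4, the most abundant, averaged 123 CPM in VSMC progerin against 70.7 in lamin C-only control. In ubiquitous progerin Flt4 averaged 68.2 CPM against 68.6 in wild-type control, and Lyve1 32.4 CPM against 8.68. Any part of the cells behind these marker lists in the Lum, Fmod, Bgn and Dcn results was not tested. Mesothelial markers summed to at most 3.67 CPM and lymphocyte markers to at most 7.27 CPM in any library, and mesothelial Wt1 was at 0 in all of them.

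Lamin C-only pool 4, the library with high Dcn, Ogn and Prelp, also had 45.4 CPM of Dpt (dermatopontin), against 9.23 to 14.8 CPM in the other 3 pools. Dpep1, another fibroblast marker, had 24.9 CPM there, against 5.41 to 5.69 CPM. The most abundant genes of the adventitial fibroblast list did not follow, although 7 of its 10 genes were highest in pool 4. Ly6c1 was lowest in pool 4 (354 CPM, against 397 to 428 CPM). Pi16 (231 CPM, against 221 to 240 CPM) and Mfap5 (257 CPM, against 246 to 275 CPM) lay within the range of the other pools. The summed fibroblast markers came to 1017 CPM in pool 4, against 954 to 982 CPM in the other 3. Adipocyte Cfd (adipsin) had 230.0 CPM, against 33.0 to 67.9 CPM. Dpt, Dpep1 and Cfd were picked after their values were seen, and their part in the high proteoglycan values was not tested.

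Hspg2 (perlecan; ENSMUSG00000028763, chromosome 4, 137468769 to 137570630) had 1540, 1390 and 1480 CPM in ubiquitous progerin, against 2130, 1560, 1710 and 1780 CPM in wild-type control. All ubiquitous progerin libraries were lower, pool 1 by a small margin, and the log2 fold change was -0.29 ± 0.08 (adjusted p = 0.0044, edgeR). In VSMC progerin Hspg2 had 1930, 1790 and 1930 CPM, against 1740, 1590, 1750 and 1650 CPM in lamin C-only control. They were all higher, yet the log2 fold change of 0.16 (95% interval 0.001 to 0.33) was not called (adjusted p = 0.0992, edgeR). It was called with upper-quartile scaling (0.24, adjusted p = 0.0209), with DESeq2 (0.20, adjusted p = 0.0386), in a fit of these 2 groups alone (0.19, adjusted p = 0.0188) and without wild-type pool 1 (0.16, adjusted p = 0.0292). The effects differed by 0.45 ± 0.11, VSMC progerin minus ubiquitous progerin (adjusted p = 0.0025, edgeR).

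All 11 basement membrane partners of perlecan were tested. In ubiquitous progerin 3 rose and 6 fell (median log2 fold change -0.31). Col4a1, a collagen IV chain, averaged 394 CPM in ubiquitous progerin against 725 in wild-type control (log2 fold change -0.88), and the laminin chain gene Lama4 fell by 1.21, while Lamb1, another laminin chain, rose by 1.33 and Nid1, nidogen, by 0.43. In VSMC progerin 8 rose and 1 fell (median 0.48). Lamb1 averaged 94.5 CPM in VSMC progerin against 11.4 in lamin C-only control (log2 fold change 3.06 ± 0.13, adjusted p = 7.2e-13, edgeR), Col18a1, the endostatin-bearing collagen, rose by 0.98, and Lamb2 fell by 0.81. On all genes tested the medians were -0.005 in ubiquitous progerin and -0.03 in VSMC progerin, and the shares called were 54.6% and 42%.

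**Figure D4:**
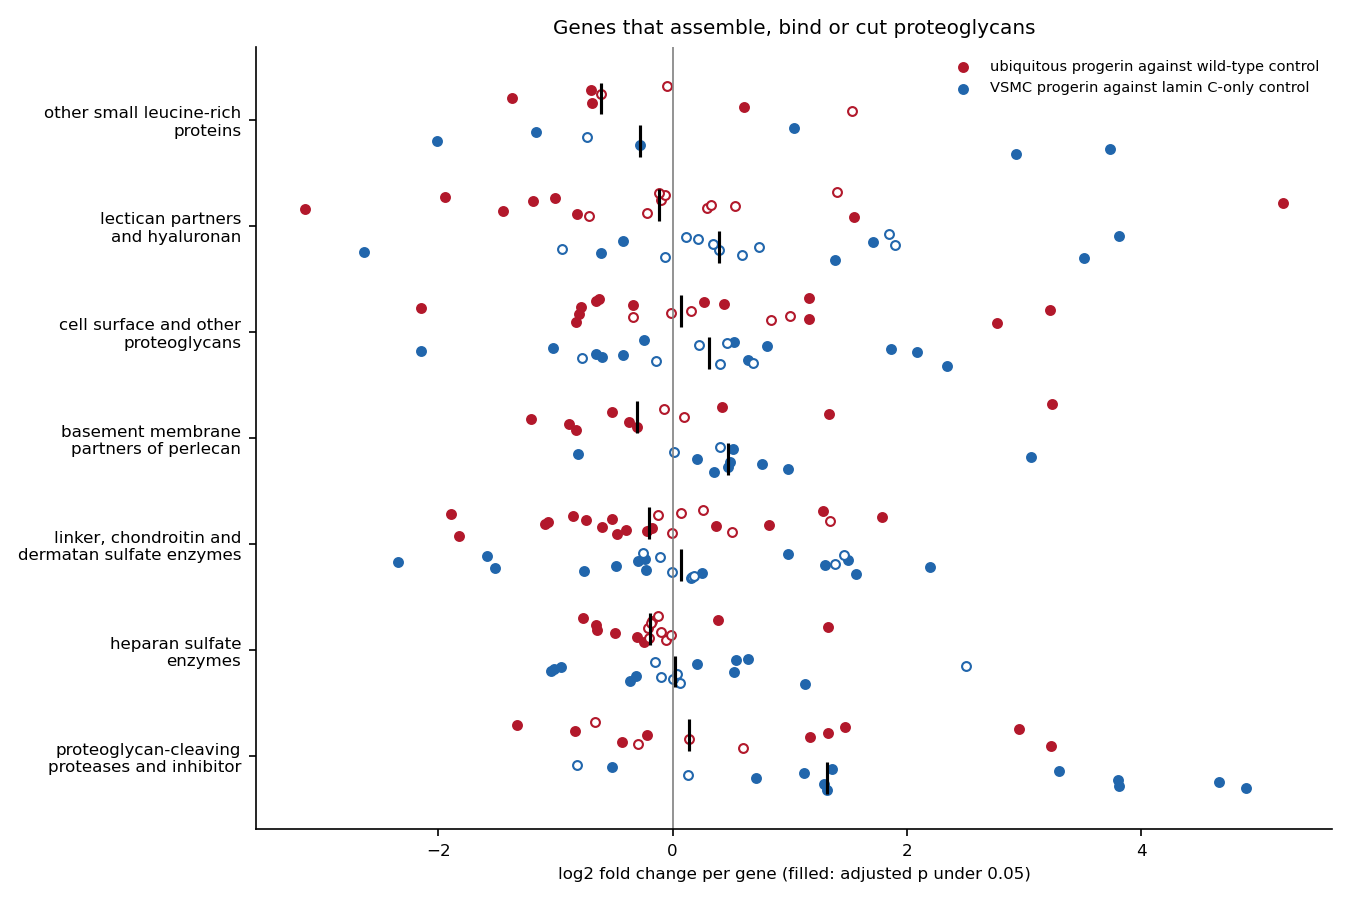
Log2 fold change (horizontal axis) of each tested gene of 7 proteoglycan pathway lists (rows), for ubiquitous progerin against wild-type control (red, upper) and VSMC progerin against lamin C-only control (blue, lower), filled where the adjusted p was under 0.05 by edgeR. Vertical position within a row only separates points, and black bars are list medians, such as -0.31 in ubiquitous progerin and 0.48 in VSMC progerin for the basement membrane partners.

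Of 23 genes for the glycosaminoglycan linker and for chondroitin or dermatan sulfate, 22 were tested. In ubiquitous progerin 4 rose and 12 fell (median log2 fold change -0.20), against 54.6% of all genes called. Pxylp1, the phosphatase that removes xylose phosphate from the linker, fell by 1.89, and the sulfotransferase gene Chst7 fell by 1.09. Chst3 rose by 0.82 and Chst15 by 0.37, both chondroitin sulfotransferases, though the CPM ranges of Chst3 overlapped (adjusted p = 0.0394, edgeR). In VSMC progerin 6 rose and 8 fell (median 0.08), against 42% of all genes called. Chst3 averaged 21.4 CPM in VSMC progerin against 4.66 in lamin C-only control (log2 fold change 2.20), and Chpf, a chondroitin polymerising factor, rose by 1.57. Csgalnact1, which starts the chondroitin chain, averaged 8.29 CPM in VSMC progerin against 42.3 in lamin C-only control (log2 fold change -2.35), and Pxylp1 fell by 1.59.

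Of 21 heparan sulfate enzyme genes, 16 were tested. In ubiquitous progerin 2 rose and 7 fell (median -0.20), which is close to the 54.6% of all genes called. Hs3st3b1, a 3-O-sulfotransferase, rose by 1.33 and Ndst2, an N-deacetylase and N-sulfotransferase, by 0.39, while Sulf1, an extracellular sulfatase, fell by 0.76 and Hs6st1, a 6-O-sulfotransferase, fell by 0.65. In VSMC progerin 5 rose and 5 fell (median 0.02), against 42% of all genes called. Ext1, the heparan sulfate polymerase subunit, averaged 182 CPM in VSMC progerin against 83.0 in lamin C-only control (log2 fold change 1.13), Sulf2 rose by 0.64, and Hs3st3a1 and Hs3st3b1 fell by 1.04 and by 1.01.

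Of 22 cell surface and other proteoglycans, 18 were tested. In ubiquitous progerin 6 rose and 7 fell (median 0.08), against 54.6% of all genes called. The invariant chain gene Cd74, expressed by antigen-presenting cells, averaged 567 CPM in ubiquitous progerin against 83.1 in wild-type control (log2 fold change 2.77). Tgfbr3, betaglycan, rose by 1.17, Ptprz1, a phosphatase proteoglycan, fell by 2.15 and Gpc4, a glypican, fell by 0.80. In VSMC progerin 6 rose and 6 fell (median 0.31), against 42% of all genes called. Sdc1 (syndecan-1) averaged 425 CPM in VSMC progerin against 117 in lamin C-only control (log2 fold change 1.86), and Cd74 rose by 2.34, while Sdc2 fell by 1.02 and Ptprz1 fell by 2.15.

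Of 15 proteases that cut proteoglycans and their inhibitor Timp3, 13 were tested. In ubiquitous progerin 5 rose and 4 fell (median 0.14, and -0.17 without wild-type pool 1), with Mmp12, the macrophage metalloelastase, up by 2.95 and Ctsl, cathepsin L, by 1.33, while Timp3 fell by 1.32 and Htra1, a serine protease, fell by 0.83. In VSMC progerin 10 rose and 1, Timp3, fell (median 1.32). Mmp12 averaged 163 CPM in VSMC progerin against 16.6 in lamin C-only control (log2 fold change 3.30), and Adamts1 rose by 1.32. Adamts15, chosen after its values were seen among the ADAMTS proteases that cut versican or aggrecan, averaged 43.0 CPM in VSMC progerin against 1.45 in lamin C-only control (log2 fold change 4.89 ± 0.46, adjusted p = 6.4e-06, edgeR). It averaged 8.02 CPM in ubiquitous progerin against 0.842 in wild-type control (log2 fold change 3.23 ± 0.50, adjusted p = 0.00019, edgeR). Each pathway gene said here to rise or fall was called by edgeR over all genes tested. The same threshold called 54.6% of all genes in ubiquitous progerin and 42% in VSMC progerin.

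Between the controls, only Vcan of the 10 members was called. It was higher in all 4 lamin C-only libraries than in any wild-type library, by 0.89 ± 0.16 on the log2 scale (adjusted p = 0.0178, edgeR), and was 1 of 25 genes called, 0.175% of those tested (0.0911% higher and 0.0841% lower). The call ended in limma voom (0.93, adjusted p = 0.0507), in a fit of these 2 groups alone (0.89, adjusted p = 0.0715), and without any of lamin C-only pool 1 (0.80, adjusted p = 0.0851), lamin C-only pool 3 (0.85, adjusted p = 0.0765), wild-type pool 3 (0.81, adjusted p = 0.0737) or wild-type pool 4 (0.80, adjusted p = 0.0677). Fmod lay lower in all lamin C-only libraries than in any wild-type library, but its log2 fold change of -1.14 (95% interval -1.89 to -0.38) was not called (adjusted p = 0.357, edgeR). Ranges did not overlap for 1 member higher and 1 lower, against 2.42% and 2.54% of all genes (4.97% in either direction). The median log2 fold change was -0.09 over the members, and this comparison shares its libraries with both progerin comparisons.

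The progerin comparisons have separate controls, so the difference of their effects could be tested. It was called for 7 of 10 members, all with the VSMC progerin effect above the ubiquitous one, against 44.2% of all genes called, 21.8% of them higher in that sense and 22.4% lower (shares of all genes tested). The 7 were Bcan, Acan, Bgn, Lum, Prelp, Fmod and Hspg2, and the median difference was 1.10 over the members and -0.002 over all genes. For Bcan and Acan a positive difference means a smaller fall. For Prelp and Hspg2 it joins a fall in ubiquitous progerin with a positive value that was not called in VSMC progerin, for Bgn a fall with a rise, and for Lum and Fmod no call with a rise. The models also differ in Lmna background, in the alleles of their controls and in where progerin is made, which cannot be told apart here.

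The genes most like each member were found by the root mean square difference of centred log2 CPM over the 14 libraries, among 10489 genes, and smaller is more alike. For Bcan they were Ackr4, an atypical chemokine receptor (0.816), Klk10, a kallikrein (1.21), and Kank4 (1.25), against a median gene at 2.17. Ackr4 averaged 5.94 CPM in ubiquitous progerin, 64.0 CPM in wild-type control, 10.8 CPM in VSMC progerin against 48.9 in lamin C-only control. For Vcan they were Tubb6 (0.361), Bcl3 (0.367) and Kif23 (0.377), against 0.876. For Acan they were Kctd21 (0.551), Gja5, the arterial connexin 40 gene (0.579), and Tcf23 (0.589), against 1.45. The closest to Prelp were Pxdn, peroxidasin of basement membranes (0.223), Pdgfa (0.240) and Cd55 (0.246), against 0.791. The closest to Lum were Col14a1, a fibril-associated collagen on the adventitial fibroblast marker list (0.315), Lgals1 (0.338) and Loxl3 (0.341), against 0.866. The closest to Dcn was Nox4 (0.236, against 0.519), and the closest to Fmod were the mitochondrially encoded mt-Nd4l (0.498) and mt-Atp8 (0.527), against 1.01. Bgn was closest to Aatk (0.065, against 0.302), Ogn to Apoo (0.25, against 0.571) and Hspg2 to Arfgap3 (0.0723, against 0.281).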

How the data were processed

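For 14 libraries the authors deposited RSEM estimated counts by gene, and log2 values for 13034 genes, 9 of the members among them, which served only as an alternative. RSEM 1.2.28, STAR 2.7.10b, cutadapt 4.1, Trim Galore 0.6.10, limma and the build GRCm38 are named in the submitters' processing notes. Not given in the sources used here were the strand setting and the annotation release. RSEM divides reads shared by genes, and intervals do not cover that error.

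Groups follow the labelled genotypes. Counts were rounded, filtered with filterByExpr (minimum count 10, total 15, share 0.7) and TMM-scaled. All 14 libraries were fitted together with edgeR 4.0.16 in R 4.3.3 by a quasi-likelihood test with robust dispersion. This test, two-sided, was Benjamini-Hochberg adjusted over 14269 genes and called under 0.05. The standard error (SE) is the absolute log2 fold change over the square root of F. Log2 CPM used a prior count of 2. Exon lengths and positions are from GENCODE M21 (GRCm38), which matched 22311 identifiers. P-values measure the spread between pools of mice, not between single mice.

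The members and gene lists were chosen with earlier results of these data known. Besides the members, up to 2 called genes per direction with the largest fold change and a mean log2 CPM of at least 2 were named from each pathway list, the 3 most abundant genes from each marker list, and the 3 nearest patterns. Not all are printed. Alternatives covered the filter, scaling, DESeq2 1.42.0, limma 3.58.1, a pool-number block, the groups fitted and each library left out. Counts over gene lists without the libraries that stand apart were added after seeing the data. Steps were tested on simulated counts.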

Additional observations from a re-analysis of the deposited data

Results flagged for a closer look

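Lamin C-only control pool 4 lay far from the other 3 pools of its group for Dcn at 296 CPM, for Ogn at 21.6 CPM and for Prelp at 20.2 CPM. These were 3 of 20 pairs of a member and a control group that were examined. Chance alone marks about 1 in 20 groups, but these 3 come from the same library and are not independent.

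The effect differed between the progerin models in edgeR's test of the difference (VSMC progerin minus ubiquitous progerin, log2) for 7 members: Bcan by 2.30, Acan by 3.87, Bgn by 0.62, Lum by 1.58, Prelp by 1.79, Fmod by 2.68 and Hspg2 by 0.45.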

How the results depend on the processing

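Of 1026 member values recomputed under alternatives, 986 kept direction and side of the threshold, 14 became called, 11 ceased to be called and 15 reversed, each of the 15 for a value that was not called. Reversed values were, on the log2 scale, Ogn in ubiquitous progerin with the replicate block (0.13) and Vcan in the difference of effects with upper-quartile scaling (0.0252). Leaving out 1 library gave ranges that cross 0 for Vcan in the difference of effects (-0.22 to 0.0446) and Dcn in VSMC progerin (-0.45 to 0.15), and between the controls for Dcn (-0.55 to 0.0545), Ogn (-0.13 to 0.62) and Hspg2 (-0.15 to 0.00253). Without both control libraries that stand apart, an alternative chosen after seeing the data, Dcn in VSMC progerin was 0.15, and between the controls Ogn was -0.22 and Hspg2 0.0114. The causes were not tested.

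Members higher in ubiquitous progerin numbered 2 in a fit of the 2 groups alone and without both libraries, the added one being Dcn, and 3 were lower when a log2 fold change of at least 1 was required. Between the controls, genes called numbered 40 with no filter, 103 with DESeq2, 16 in a fit of the 2 groups and 15 without both libraries, and members higher were 0 in limma voom, in the fit of the 2 groups and at a log2 fold change of at least 1. Leaving out each library in turn gave 1 to 2 members higher and 5 lower in ubiquitous progerin (6861 to 7912 genes called), 3 to 6 higher and 1 lower in VSMC progerin (5185 to 6196 genes called), 0 to 1 higher between the controls (8 to 45 genes called), and 6 to 8 higher in the difference of effects (5731 to 6337 genes called).

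Same-numbered pools did not deviate together over the genes tested (correlations of -0.0461 to 0.0227), and the main fit did not pair them. The labels do not say how pools were numbered. Such correlations cannot exclude a shared batch that acts on some genes. With pool number as a replicate block, 7536 genes were called in ubiquitous progerin, 5806 in VSMC progerin and 32 between the controls, and Ogn became called in VSMC progerin (0.65, adjusted p = 0.0372, edgeR). Depth limits Acan most, with 0 to 44 counts per library.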
